A study of Mus musculus with 18 samples.

Results

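Nodal, its Lefty inhibitors, the co-receptor Tdgf1, the ligands Bmp4, Fgf4, Fgf5 and Fgf2 and the receptors Fgfr1 and Fgfr2 were followed in mouse embryonic stem cells, in cells differentiated from them, and in both after ionizing radiation. These 10 genes, of 19259 that RefSeq names on the array, were picked by name for their part in signaling between early embryonic cells. The choice was made with earlier results of these data known. Every probe whose transcript accession belongs to one of these genes was used. They have 13 probes, with 3 for Fgfr1, 2 for Fgfr2 and 1 for each other gene.

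Nodal is a secreted ligand of the TGF-beta family. It binds activin receptors together with the co-receptor that Tdgf1 encodes (also called Cripto), signals through SMAD proteins, and switches on its own gene and those of its secreted inhibitors, Lefty1 and Lefty2. Fibroblast growth factors (FGFs) signal through receptor tyrosine kinases and ERK: Fgf4 is made by embryonic stem cells themselves and moves them toward differentiation, while Fgf5 marks the later, primed epiblast, and Bmp4 acts with the cytokine LIF to hold mouse stem cells in the undifferentiated state.

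The ES group holds unirradiated, early-passage stem cells grown on gelatin with LIF and without feeder cells. The ED group holds isogenic cells that, per the labels, were kept in medium lacking LIF for 1 week, or until stem cell markers were gone. The methods of the study state a shorter minimum and name beta-mercaptoethanol as removed too. Both cell types were also collected 15 min after 10 Gy (ESRE and EDRE) and 4 h after 10 Gy (ESRL and EDRL). Total RNA of each of the 18 samples, 3 in each of the 6 groups, was labeled with Cy3 and hybridized to 1 Agilent array, and since the labels speak of triplicates only, the replicates may be technical.

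The value used throughout is a relative signal, the log2 of a spot's background-subtracted intensity minus the log2 of the 75th percentile of the spots on its array, so that 0 is the level of a fairly bright spot and each unit is a doubling. A spot counts as well above background where the scanner software marked it so, and spots that the software marked as non-uniform or as outliers were left out. That 75th percentile was an intensity of 2806 to 4268 on 15 arrays, 1952 on ESRL replicate 1, and 875 and 1155 on EDRE replicates 2 and 3. On those last arrays 24.4% and 23.8% of the spots carried an outlier mark, against 3.33% to 11.1% on the others. The arrays were read at 6 scan times, which run along with the groups: ES was scanned alone, ED with ESRE replicate 3, EDRL with EDRE replicate 1, ESRE replicates 1 and 2 with ESRL replicates 2 and 3, EDRE replicates 2 and 3 alone, and ESRL replicate 1 alone.

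The group labels were checked on the genes whose loss defined the ED cells. Pou5f1, the stem cell transcription factor Oct4, had a relative signal of 6.69 ± 0.09 in ES against -3.59 ± 0.08 in ED (SD, 3 arrays each), which is 1248-fold lower. Nanog was 461-fold lower, with ES replicate 3 as the 1 usable ES array, Sox2 5.15-fold and Fut4, the enzyme behind the antigen SSEA1, 4.57-fold. All 4 markers were called lower in ED, yet each was still well above background on the 3 ED arrays, and Sox2 stayed at 2.32 ± 0.11 (SD, n = 3).

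In the unirradiated cells, 6 of the 10 genes were called lower in ED than in ES, and 0 were called higher. A gene is called where the change of at least 1 of its probes has a limma p, adjusted over all probes tested, under 0.05 and a size over 1 on the log2 scale. The spread is taken from all 6 groups together. For a group with 1 usable array it therefore comes from the other groups alone. Of the 28636 probes tested in ED against ES 41.5% were called, 15.0% higher and 26.4% lower in ED. The genes called were Nodal, Lefty1, Lefty2, Tdgf1, Fgf4 and Fgf5, while Bmp4, Fgf2, Fgfr1 and Fgfr2 stayed within a factor of 2 (log2 change under 1). Since the RNA comes from bulk cultures, fewer cells that make a transcript and less of it per cell cannot be told apart.

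The same 6 genes were called lower, and 0 higher, when the irradiated cell types were compared on arrays of their own. At 15 min (EDRE against ESRE) 46.1% of 24487 probes were called, 18.7% higher and 27.4% lower, and at 4 h (EDRL against ESRL) 48.6% of 26395, 23.8% higher and 24.8% lower. The comparison at 15 min could test 9 of the 10 genes, as Fgf2 was not well above background on all 3 arrays of either group. With scan time as a random block in the fit, the 6 genes were called in each of the 3 comparisons as well. ED was also compared with the 1 stem cell array read at its own scan time, ESRE replicate 3, and that difference is given with each gene below as its within-scan value. For the 6 genes called, which are not well above background on all 3 ED arrays, it reaches into the background and is no measured size.

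**Figure D1:**
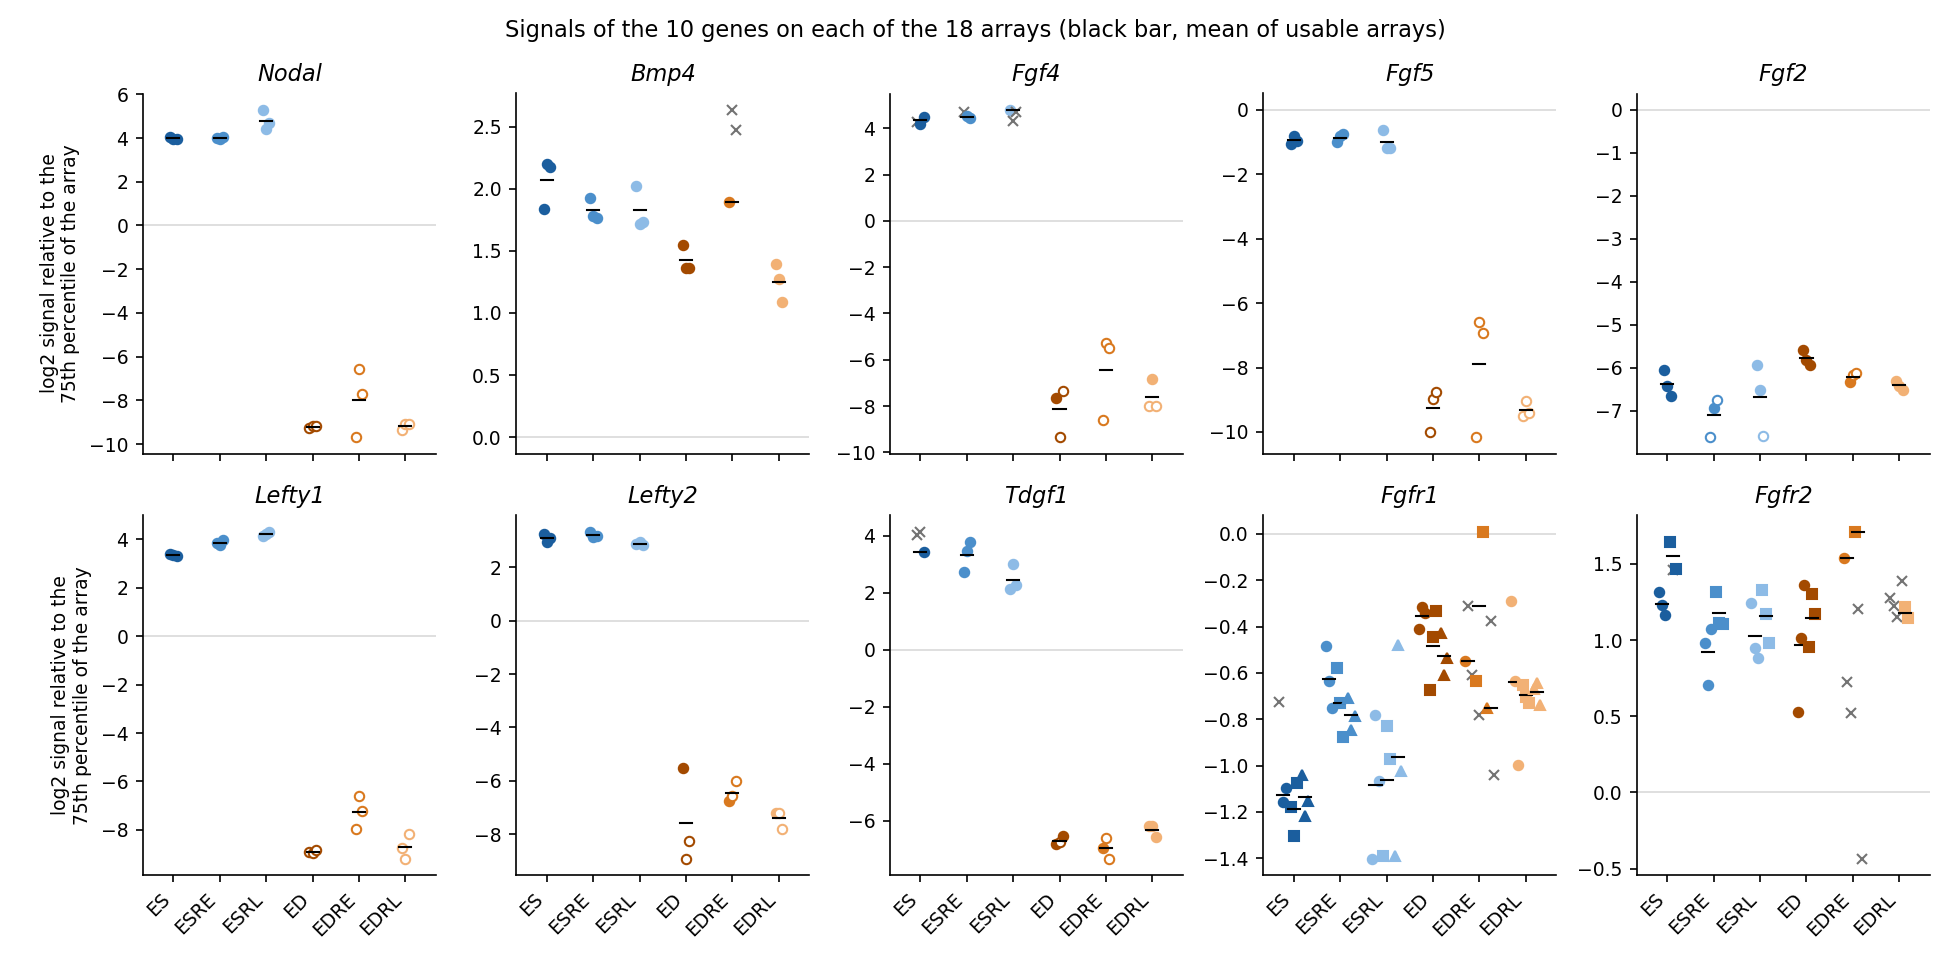
Relative signal (log2, 0 is the 75th percentile of the array) of the 10 genes on the 18 arrays, by group. Filled points are well above background, open points are not, crosses are outlier spots left out of the tests and bars are group means; markers of different shape are the probes of Fgfr1 and Fgfr2. Nodal, Lefty1, Lefty2, Tdgf1, Fgf4 and Fgf5 lie far lower in the 3 groups of differentiated cells, with most points open, while the other 4 genes stay near their stem cell level.

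The plot of signal by array shows 2 kinds of gene. Nodal, Lefty1, Fgf4, Fgf5, Lefty2 and Tdgf1 fall from a clear signal in all 9 stem cell arrays to the background or near it in the 9 arrays of differentiated cells, and the other 4 keep a similar level in both. Where a gene lay under the background in the dim group, its fold is given as a lower bound ("at least"): each dim array was set to its own signal or to the lowest signal marked well above background on that array, whichever was larger. A spot can exceed that lowest signal and still be unmarked, so the bounds are approximate. On ED replicate 2 the unmarked Tdgf1 spot read an intensity of 35.5, where the lowest marked signal was 23.2. The fitted log2 change and SE beside such a bound reach into the background and are no measured size.

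The promoters of Nodal, Tdgf1, Fgf4 and Fgf5 are shown because these transcripts were lower together in ED. They run from 250 bases before to 50 after the transcript start (RefSeq, mouse build GRCm38.p6). Windows were held for 7 of the 10 genes, and for Lefty1, Lefty2 and Fgfr1 none was. Capitals mark matches on either strand to a TATA box (TATAAA, in 13.6% of 32851 promoter windows) or a GC box (GGGCGG, in 35.7%), which were added after the windows had been read. Nodal lies at chr10:61417722-61418021 on the plus strand, Tdgf1 at chr9:110946109-110946408 on the minus strand, Fgf4 at chr7:144861136-144861435 and Fgf5 at chr5:98253934-98254233, both on the plus strand.
Nodal: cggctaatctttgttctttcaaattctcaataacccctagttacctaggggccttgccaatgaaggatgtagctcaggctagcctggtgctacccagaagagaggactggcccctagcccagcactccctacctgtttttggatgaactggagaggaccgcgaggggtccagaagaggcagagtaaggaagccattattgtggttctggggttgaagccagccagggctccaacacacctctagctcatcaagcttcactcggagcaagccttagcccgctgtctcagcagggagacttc
Tdgf1: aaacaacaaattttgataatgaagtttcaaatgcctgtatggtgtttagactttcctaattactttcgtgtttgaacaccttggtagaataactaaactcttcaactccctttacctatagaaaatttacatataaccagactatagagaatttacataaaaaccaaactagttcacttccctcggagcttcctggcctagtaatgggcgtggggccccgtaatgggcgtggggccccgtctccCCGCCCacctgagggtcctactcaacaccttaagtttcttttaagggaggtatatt
Fgf4: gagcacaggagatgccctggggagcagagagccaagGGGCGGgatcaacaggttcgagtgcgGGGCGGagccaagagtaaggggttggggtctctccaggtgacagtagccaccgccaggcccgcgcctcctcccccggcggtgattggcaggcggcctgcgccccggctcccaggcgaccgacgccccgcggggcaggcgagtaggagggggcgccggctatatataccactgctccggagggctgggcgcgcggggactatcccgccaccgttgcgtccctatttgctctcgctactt
Fgf5: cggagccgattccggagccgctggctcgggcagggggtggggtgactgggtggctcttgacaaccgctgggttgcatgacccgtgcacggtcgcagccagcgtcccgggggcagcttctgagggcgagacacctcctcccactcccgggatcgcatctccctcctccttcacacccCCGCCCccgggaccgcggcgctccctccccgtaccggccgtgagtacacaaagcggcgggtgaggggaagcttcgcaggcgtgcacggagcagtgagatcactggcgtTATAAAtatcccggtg
The Nodal window holds neither of these motifs. In Tdgf1 the GC box is on the other strand at position -6, counted with the start at 1, and Fgf4 has GC boxes at -214 and -188. Fgf5 has a GC box on the other strand at -74 and a TATA box at 35. Among the genes not called lower, Fgf2 has a GC box at -49 and Bmp4 at -38. Also searched on both strands were the letters AATCCACA (FOXH1, the DNA-binding partner of the SMADs in Nodal signaling; in 0.855% of windows), GTCTAGAC (a SMAD palindrome, 0.213%), ATGCAAAT (the octamer bound by Oct4, 1.74%) and AACAATG (SOX, 3.78%), and none of these is in the windows of the 7 genes. A match is a string of letters and says nothing of binding.

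Nodal, the ligand that gives the pathway its name, had a clear signal in the stem cells and was not detected in the differentiated ones. Its relative signal was 4.04, 3.95 and 3.95 on ES replicates 1 to 3 and -9.26, -9.18 and -9.19 on the ED arrays. Every ES array was well above background and 0 of the 3 ED arrays were, so the groups do not overlap. Nodal was at least 2830-fold lower in ED. The fitted log2 change, which reaches into the background, was -13.19 ± 0.52 (SE), with an adjusted p of 3.99e-11. After irradiation the bounds were 1240-fold at 15 min (-11.99 ± 0.52, adjusted p 1.02e-10) and 4980-fold at 4 h (-13.97 ± 0.52, adjusted p 1.86e-11). Within the scan time that ED shares with ESRE replicate 3 the difference was -13.24, and with scan time as a random block the fitted change of ED against ES was -13.05.

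The irradiated differentiated cells gave no Nodal signal above the background either, at -9.36, -9.09 and -9.10 in EDRL. The EDRE values were -9.68 on replicate 1, -6.59 on replicate 2 and -7.73 on replicate 3, where the last 2 arrays are the dim ones. On EDRE replicate 2 the probes of Nodal, Fgf5, Lefty1, Lefty2 and Tdgf1 have 1 identical signal (-6.59), so this array shows no level for them, only that they lie below what it can detect. Without EDRE replicates 2 and 3 the change of EDRE against ESRE was -13.68 for Nodal, and the same 6 genes were called.

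Fgf4, the FGF that stem cells make for themselves, followed Nodal. On ES replicates 2 and 3 it stood at 4.20 and 4.48 (replicate 1 had an outlier spot), and on the ED arrays at -7.64, -9.35 and -7.35, of which 1 was well above background. All usable ES arrays were far above all ED arrays, at least 3490-fold, with a log2 change of -12.46 ± 0.93 (SE) and an adjusted p of 9.08e-07. After irradiation the stem cells kept Fgf4 at 4.51 and 4.44 on the 2 usable ESRE arrays and at 4.80 on the 1 usable ESRL array, ESRL replicate 1. In the irradiated differentiated cells it ranged from -8.62 to -5.27 in EDRE and from -8.02 to -6.85 in EDRL, without overlap with the stem cells. The bounds were 1720-fold at 15 min (-10.94 ± 0.93, adjusted p 2.51e-06) and 4550-fold at 4 h (-12.41 ± 1.18, adjusted p 5.55e-06), and without ESRL replicate 1 the comparison at 4 h has no value. The within-scan value for ED was -12.55.

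Fgf5, the primed epiblast marker, was at -1.06, -0.81 and -0.96 in ES and at -10.01, -8.99 and -8.75 in ED. It ranged from -10.16 to -6.59 in EDRE and from -9.50 to -9.05 in EDRL. It was detected on all 9 stem cell arrays and on 0 of the 9 arrays of differentiated cells. Fgf5 was at least 93.5-fold lower in ED (log2 change -8.31 ± 0.66 (SE), adjusted p 7.37e-08), at least 42.9-fold in EDRE against ESRE (-7.03 ± 0.66, adjusted p 4.29e-07) and at least 90.3-fold in EDRL against ESRL (-8.33 ± 0.66, adjusted p 6.08e-08). The fitted changes reach into the background. The bounds are limited by the stem cell signal of this probe, which leaves little room above the background. The within-scan value was -8.49. A background model that adds a constant to each signal (normexp with an offset of 50) compressed the changes of Fgf5 to -4.75, -3.02 and -4.61 in the 3 comparisons, and all were still called.

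Bmp4, the LIF partner, was well above background on all 18 arrays. It was 1.83, 2.20 and 2.18 in ES and 1.55, 1.36 and 1.36 in ED, so that every ED array lay below every ES array. The change was -0.65 ± 0.17 (SE) with an adjusted p of 0.00553, or 1.57-fold, which passes the limit on p and not the limit on the fold. At 4 h, Bmp4 was 2.02, 1.72 and 1.73 in ESRL and 1.40, 1.27 and 1.09 in EDRL, again without overlap (-0.57 ± 0.17, adjusted p 0.00975, 1.49-fold). The size of this small difference rests on how arrays are put on a common scale. Scaling to the array median instead of the 75th percentile moved the median change of all probes in ED against ES from -0.19 to 0.46, the quantile method moved it to 0.22, and the authors' own value table has it at 0.47. Under those settings the change of Bmp4 was -0.0034, -0.71 and 0.0013, so the lower level of Bmp4 in ED depends on the scaling. With scan time as a random block it was -0.54 and missed the limit on p, and the within-scan value was -0.34. At 15 min Bmp4 differed by 0.07 ± 0.23 on the 1 usable EDRE array (adjusted p 0.832), and the authors' value table, which differs in its scaling and keeps the outlier spots, gave 1.22, which was called. With outlier spots kept alone it was not called (0.51).

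Fgf2, a ligand that many mesenchymal cells make, lay close to the background in every group. It was -6.04, -6.42 and -6.66 in ES and -5.59, -5.81 and -5.94 in ED, all well above background, and each ED array was above each ES array. The change of 0.60 ± 0.34 (SE), 1.51-fold, was not called (adjusted p 0.162). It was called with median scaling (1.24), quantile normalization (1.44) and the authors' values (1.24), with adjusted p values from 0.00471 to 0.864 over all alternatives. The irradiated groups ran from -7.61 to -5.94 in ESRE and ESRL and from -6.52 to -6.12 in EDRE and EDRL, with the probe well above background on 3 of those 6 stem cell arrays and 4 of the 6 others. On ESRE replicate 3, the stem cell array read with ED, Fgf2 was not well above background, so its within-scan value (0.96) shows no level.

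Lefty1 and Lefty2 encode secreted inhibitors that block Nodal at its receptors, and Nodal signaling is known to induce them. Their sequences are nearly identical, so each probe may read both transcripts, and cross-hybridization was not tested. Lefty1 stood at 3.37, 3.34 and 3.28 in ES and at -8.89, -8.93 and -8.85 in ED. In EDRE it was -7.96, -6.59 and -7.20 and in EDRL -8.72, -9.19 and -8.16. It was detected on all 9 stem cell arrays and on 0 of the other 9, and the groups lie far apart. The bounds were 1800-fold lower in ED (log2 change -12.22 ± 0.29 (SE), adjusted p 4.84e-13), 1010-fold lower in EDRE than in ESRE (-11.10 ± 0.29, adjusted p 7.7e-13) and 3340-fold lower in EDRL than in ESRL (-12.91 ± 0.29, adjusted p 2.73e-13). These fitted changes reach into the background, as does the within-scan value of -12.84.

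Lefty2 stood at 3.24, 2.96 and 3.11 in ES and at -5.54, -8.92 and -8.25 in ED. The ED spread comes from replicate 1, the only one of the 3 well above background, and even that array lay far below every ES array. Lefty2 was at least 909-fold lower in ED (-10.67 ± 0.59 (SE), adjusted p 1.27e-09), at least 494-fold in EDRE against ESRE (-9.66 ± 0.59, adjusted p 3.69e-09) and at least 1160-fold in EDRL against ESRL (-10.29 ± 0.59, adjusted p 1.58e-09). EDRE ranged from -6.7 to -6.0 and EDRL from -7.80 to -7.20, each with 1 of 3 arrays well above background, and the within-scan value was -10.73.

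Tdgf1, the co-receptor that Nodal needs, was the last of the 6, and unlike Nodal it left a trace in the differentiated cells. In ES it was 3.43 on replicate 3, the 1 usable array, and the outlier spots of replicates 1 and 2 read 4.02 and 4.14. The ED values were -6.81, -6.73 and -6.53, with 2 of the 3 arrays well above background, and in EDRL, at -6.19, -6.19 and -6.55, all 3 were. Even so the cell types did not overlap. Tdgf1 was at least 1110-fold lower in ED (log2 change -10.12 ± 0.44 (SE), adjusted p 8.89e-10), and without ES replicate 3 there is no value. At 15 min it was at least 560-fold lower (-10.28 ± 0.31, adjusted p 3.63e-11), and at 4 h, with both groups well above background, 437-fold lower (-8.77 ± 0.31, adjusted p 1.15e-10). The within-scan value was -10.47. Intronless copies of Tdgf1 elsewhere in the genome could add to its signal, which was not tested.

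**Figure D2:**
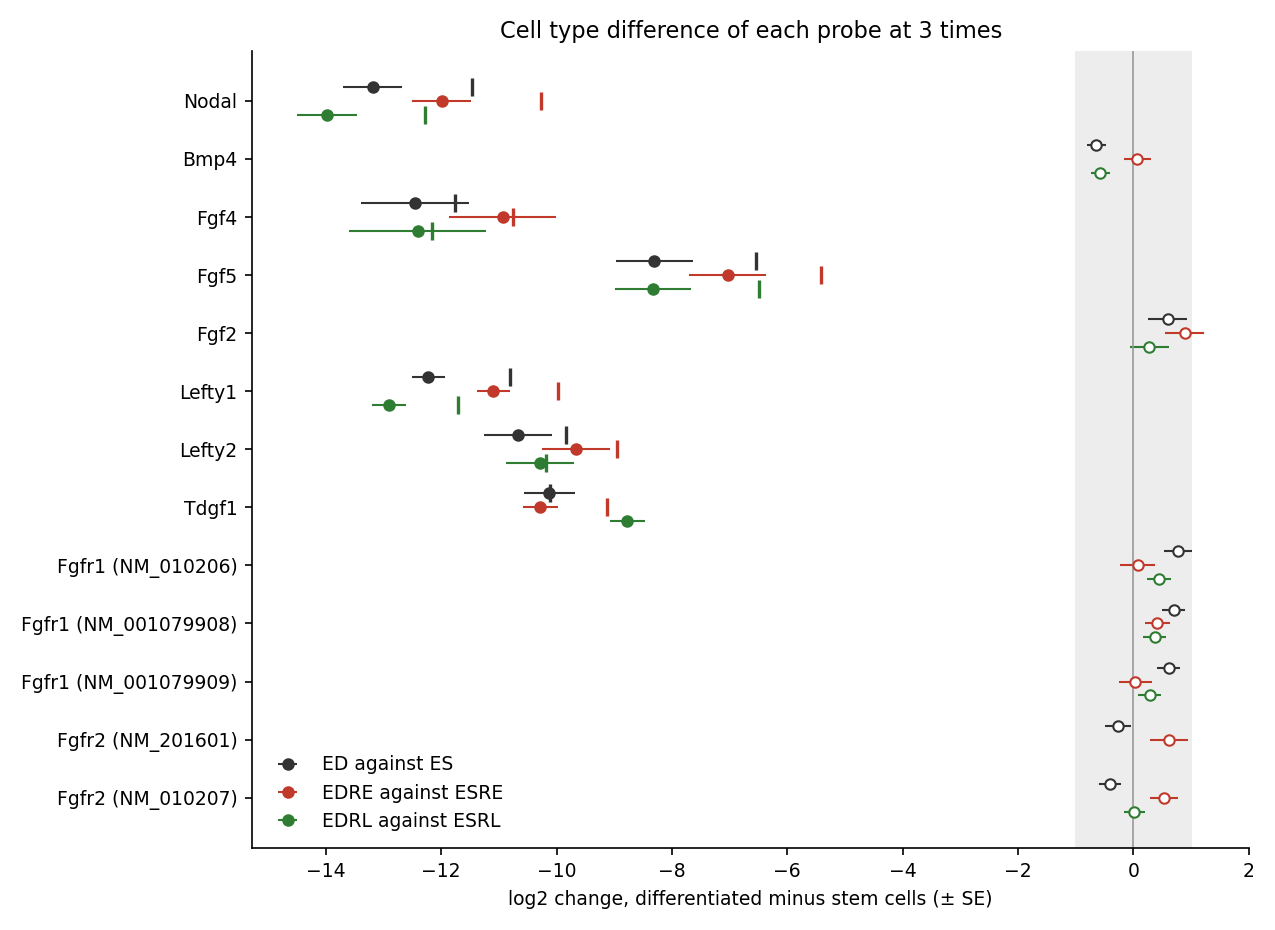
Log2 change of differentiated against stem cells for the 13 probes, unirradiated, 15 min and 4 h after 10 Gy, with the standard error of the fit. Filled points are called, the grey band spans the fold limit of 1 in either direction, and vertical ticks are the lower bounds on the change where a group lies under the background. The probes of 6 genes sit far to the lower side in all 3 comparisons, while those of Bmp4, Fgf2, Fgfr1 and Fgfr2 lie inside the band.

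Fgfr1, an FGF receptor common on mesenchymal cells, was detected on all 18 arrays by its 3 probes, and all 3 read higher in ED. The probe of NM_010206 was -1.16 and -1.10 on the 2 usable ES arrays and -0.41, -0.31 and -0.34 in ED. The probe of NM_001079908 went from -1.18, -1.31 and -1.08 to -0.67, -0.45 and -0.33, and that of NM_001079909 from -1.04, -1.22 and -1.15 to -0.43, -0.61 and -0.54. For each probe, every ED array was above every ES array. The changes were 0.77 ± 0.24, 0.70 ± 0.20 and 0.61 ± 0.20 (SE), or 1.71-fold, 1.63-fold and 1.53-fold, with adjusted p values of 0.0175, 0.00922 and 0.0226, so they passed the limit on p and missed that on the fold. The 3 probes share a gene and are not independent of each other.

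The direction for Fgfr1 was the same under each scaling and the size was not. Median scaling gave 1.43, 1.35 and 1.25 for the 3 probes and the authors' values gave 1.29, 1.35 and 1.26, all called, and quantile normalization 0.91, 0.84 and 0.76. Within the ED scan time the differences were 0.40, 0.39 and 0.26, and with scan time as a random block 0.77, 0.71 and 0.47, which missed the limit on p. At 15 min, with 1 or 2 usable EDRE arrays a probe, the changes were 0.08, 0.42 and 0.03 (adjusted p 0.85, 0.132 and 0.936), and median scaling gave a call for the second probe (1.18). At 4 h Fgfr1 in EDRL against ESRL differed by 0.44, 0.37 and 0.28 (adjusted p 0.0927, 0.125 and 0.244).

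Fgfr2, the receptor with splice forms of epithelial and mesenchymal cells, had a similar level in both cell types. Its probe of NM_201601 was 1.32, 1.23 and 1.17 in ES and 0.52, 1.01 and 1.36 in ED, and its probe of NM_010207 was 1.64 and 1.46 on the 2 usable ES arrays and 0.96, 1.30 and 1.17 in ED. The first pair of groups overlaps and the second does not. Neither change was called, at -0.27 ± 0.23 and -0.41 ± 0.19 (SE, adjusted p 0.365 and 0.0992), the direction turned under median scaling (0.37 and 0.22), and the within-scan values were -0.11 and 0.04. In EDRE only replicate 1 was usable, at 1.54 and 1.71, which gave 0.62 and 0.53 against ESRE (adjusted p 0.13 and 0.0836) and calls under median scaling (1.52 and 1.44). With outlier spots kept these values were 0.01 and -0.35, so the direction of Fgfr2 at 15 min depends on which spots are used, and the NM_201601 probe has no usable EDRL array.

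In the order of group means, the 3 stem cell groups came before the 3 differentiated ones for Nodal, Fgf4, Fgf5, Lefty1, Lefty2 and Tdgf1. For Nodal the ESRL arrays stood apart from the ESRE arrays by 0.36, and ESRE and ES overlapped. Nodal was well above background on 0 of the 9 arrays of differentiated cells, so these groups have no order. Bmp4 had no such divide: ES, EDRE, ESRL and ESRE followed each other with overlap, at 2.07, 1.89, 1.83 and 1.83, and ED at 1.42 and EDRL at 1.25 came last. The place of EDRE rests on 1 usable array, and with outlier spots kept its mean is 2.33, above ES.

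Irradiated stem cells were compared with ES to ask whether these signals respond within minutes or hours. At 15 min (ESRE against ES) 0 of the 10 genes were called by limma, where 0.341% of all 27875 probes were (0.226% higher, 0.115% lower). At an unadjusted p under 0.05 there was 1, Fgfr1, and by the test of the study's methods, a fold over 2 with a two-sided test between the groups, 0. At 4 h (ESRL against ES) 0 of the 10 were called by limma, beside 6.52% of 27966 probes (0.662% higher, 5.86% lower), with 2 at an unadjusted p under 0.05, Lefty1 and Tdgf1, and 0 by the methods' test. The later against the earlier time (ESRL against ESRE) gave 0 of the 9 genes tested by limma, beside 4.03% of 24935 probes (0.594% higher, 3.44% lower), with 1 at an unadjusted p under 0.05, Tdgf1, and 0 by the methods' test. Of all probes, 8.80%, 24.0% and 19.8% had an unadjusted p under 0.05 in these 3 comparisons, and 2.80%, 6.96% and 4.10% passed the methods' test before adjustment. The spread in the limma fit also takes in the differentiated cells, where Nodal, Lefty1, Lefty2, Fgf4 and Fgf5 were mostly under the background. Their SE and p can therefore be too large for stem cells, and a missing call does not show that they were unchanged. Lefty1 had an SD of 0.05 in ES and 0.09 in ESRE, against 0.69 in EDRE and 0.51 in EDRL.

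None of the changes in stem cells passed the threshold, and those of the Nodal pathway are given by array. Nodal was 4.01, 3.95 and 4.03 in ESRE, as in ES, and 5.29, 4.39 and 4.70 in ESRL. All 3 ESRL arrays lay above all ES and ESRE arrays. The difference from ES was 0.81 ± 0.52 (SE), 1.76-fold, with an adjusted p of 0.377, and it was 0.56 without ESRL replicate 1, the array scanned alone. In a fit of the 9 stem cell arrays only, chosen after seeing the data, the adjusted p was 0.0846, and over all alternatives it ran from 0.0158 to 1.

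Lefty1 separated all 3 groups. It was 3.82, 3.77 and 3.95 in ESRE and 4.12, 4.22 and 4.31 in ESRL, beside 3.28 to 3.37 in ES, and no array of one group reached into the next. ESRE was 1.43-fold above ES (0.52 ± 0.29 (SE), adjusted p 0.708) and ESRL 1.85-fold (0.88 ± 0.29, adjusted p 0.0792). For ESRL the change was called under median scaling (1.19) and with the authors' values (1.20), and the adjusted p over all alternatives ran from 0.0148, without EDRE replicates 2 and 3, to 1, with scan time as a random block.

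Lefty2 had another pattern, though the probes may share targets. It was 3.34, 3.13 and 3.16 in ESRE and 2.89, 2.93 and 2.84 in ESRL, the latter below every ES array, though the nearest ES array was within 0.03. The change of ESRL from ES was -0.22 ± 0.59 (SE) with an adjusted p of 0.873, and under median scaling it was 0.09, with the other sign. This SE is wider than the spread of the stem cell arrays. The SD of Lefty2 was 0.14 in ES and 0.04 in ESRL, against 1.79 in ED, and the fit takes all groups together.

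Tdgf1 was 2.73, 3.48 and 3.78 in ESRE and 2.11, 3.02 and 2.25 in ESRL. The groups overlap, since ESRL replicate 2 lies above ESRE replicate 1. Against the 1 usable ES array the ESRL change was -0.97 ± 0.44 (SE), 1.96-fold, adjusted p 0.2. It was called with outlier spots kept (-1.40) and with the authors' values (-1.09), and the adjusted p over all alternatives ran from 0.0179 to 1. ESRL against ESRE gave -0.87 ± 0.31 (adjusted p 0.141), and without ESRL replicate 2, the highest of its group, -1.15, which was called.

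Scan time limits these small differences, since ES arrays share theirs with no other group. With it as a random block, limma called 0 of all the probes in either comparison with ES. Inside the scan time that holds ESRE replicates 1 and 2 and ESRL replicates 2 and 3, ESRL was above ESRE by 0.57 for Nodal and 0.47 for Lefty1 and below it for Lefty2 (-0.35), Tdgf1 (-0.47) and Bmp4 (-0.13). For ES itself scan time and group cannot be told apart.

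**Figure D3:**
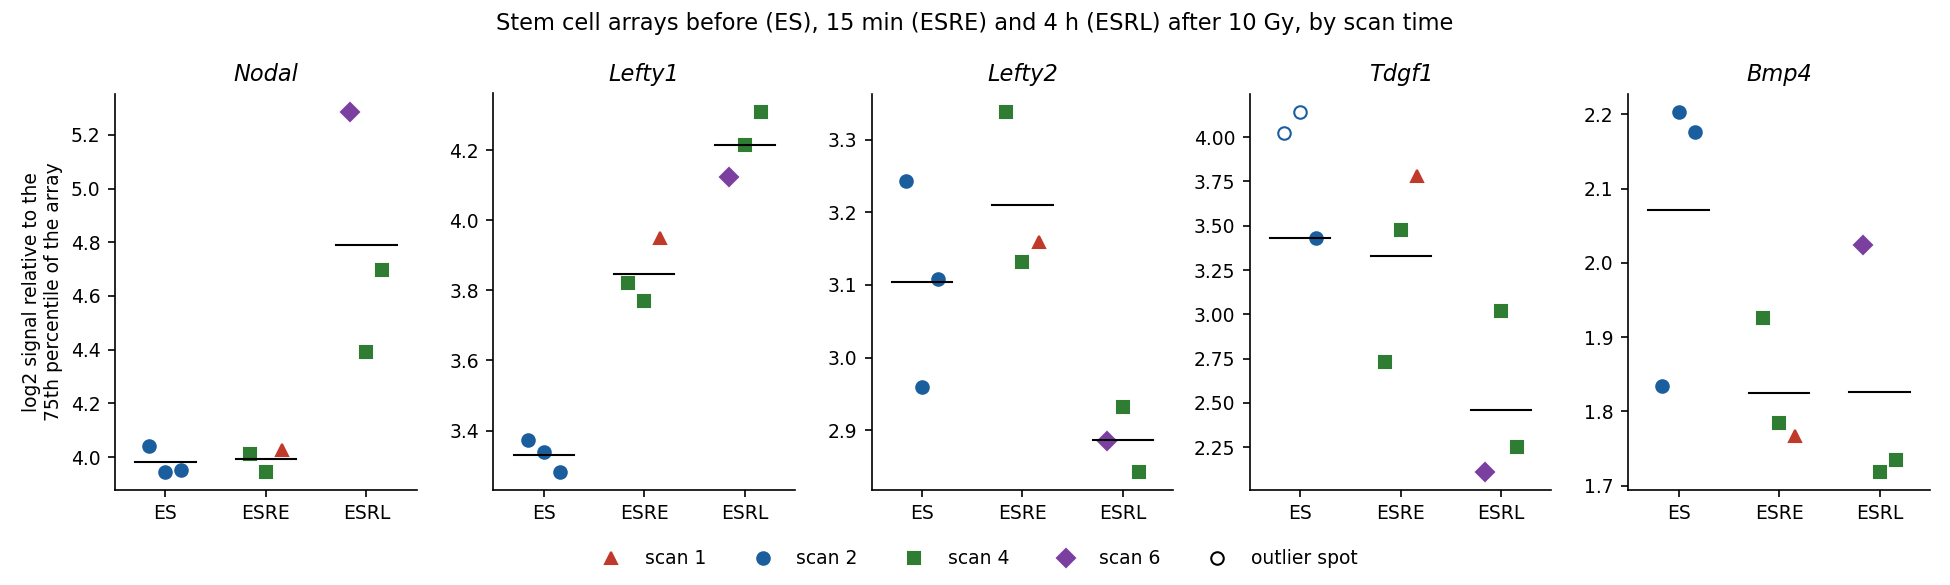
Relative signal (log2) of Nodal, Lefty1, Lefty2, Tdgf1 and Bmp4 on the 9 stem cell arrays, colored by scan time, with open points for outlier spots. Nodal and Lefty1 are highest in ESRL, from 4.39 to 5.29 and from 4.12 to 4.31, and the ES arrays all share a scan time that no other group has.

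The plot of stem cell arrays by scan time shows that the highest Nodal value, 5.29, is ESRL replicate 1, the array with a scan time of its own, and that the other ESRL arrays, 4.39 and 4.70, still lie above the ESRE arrays read with them. For Lefty1 all 3 ESRL arrays sit close together. Among the other ligands, Fgf5 was at -0.86 ± 0.13 in ESRE and -0.99 ± 0.33 in ESRL (SD, 3 arrays each), overlapping with ES, and the changes of Fgf4 from ES were 0.13 ± 1.02 and 0.45 ± 1.25 (SE). Bmp4 changed by -0.25 ± 0.17 at both times. The Fgfr1 probes were above ES in every usable ESRE array, by 0.50, 0.46 and 0.35 (adjusted p 0.594, 0.516 and 0.715), and by 0.04, 0.12 and 0.17 in ESRL, where the groups overlap. In ESRE Fgf2 changed from ES by -0.72 (adjusted p 0.57), well above background on 1 of 3 arrays, and the Fgfr2 probes by -0.32 and -0.38 (adjusted p 0.832 and 0.645), each below every usable ES array. In ESRL these changes were -0.31 for Fgf2 and -0.21 and -0.39 for Fgfr2 (adjusted p 0.64, 0.638 and 0.244), and only the last had groups apart.

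In the differentiated cells most of the pathway was too dim to test. At 15 min (EDRE against ED) 4 of the 10 genes were tested, Bmp4, Fgf2, Fgfr1 and Fgfr2, and 0 were called by limma, where 3.38% of 24490 probes were (1.49% higher, 1.89% lower), with 1 at an unadjusted p under 0.05, Fgfr2, and 0 by the methods' test. At 4 h (EDRL against ED) Tdgf1 joined them, and 0 of 5 were called by limma beside 1.43% of 25412 probes (1.26% higher, 0.173% lower), with 0 at an unadjusted p under 0.05 and 0 by the methods' test. Between the times (EDRL against EDRE) 0 of the 5 were called by limma, beside 6.15% of 24167 probes (3.02% higher, 3.12% lower), with 1 at an unadjusted p under 0.05, Bmp4, and 0 by the methods' test. The shares of all probes at an unadjusted p under 0.05 were 24.4%, 12.6% and 26.7%, and by the methods' test before adjustment 4.59%, 3.59% and 5.38%.

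The values of Bmp4 at 15 min rest on few spots. The 1 usable EDRE array, replicate 1, stood at 1.89, above all ED arrays (1.36 to 1.55) and all EDRL arrays (1.09 to 1.40), and the outlier spots of replicates 2 and 3 read 2.64 and 2.47. EDRE against ED gave 0.47 ± 0.23 (SE, adjusted p 0.249), and EDRL against EDRE -0.64 ± 0.23 (adjusted p 0.105), which is also the difference within the scan time that EDRL shares with EDRE replicate 1. With the authors' values both were called, at 1.05 and -1.08. Over all alternatives the adjusted p ran from 0.0138 to 1 for the first and from 0.00756 to 0.385 for the second.

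Fgf2 was -6.34, -6.16 and -6.12 in EDRE and -6.29, -6.41 and -6.52 in EDRL. The EDRL arrays all lay below the ED arrays, while EDRE replicates 2 and 3 were not well above background and cannot place EDRE above or below ED. The changes from ED were -0.43 ± 0.34 and -0.63 ± 0.34 (SE, adjusted p 0.5 and 0.487). Tdgf1 differed by 0.38 ± 0.31 between EDRL and ED (adjusted p 0.7), with every EDRL value but 1 above every ED value. The Fgfr1 probes changed by -0.19, 0.17 and -0.23 at 15 min and by -0.29, -0.21 and -0.16 at 4 h, and none was called. Both Fgfr2 probes changed by 0.57 at 15 min, on 1 usable EDRE array. With outlier spots kept their EDRE means were 0.93 and 0.83, below the ED means of 0.97 and 1.14. At 4 h the Fgfr2 probe with usable EDRL arrays changed by 0.04.

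Whether the response to radiation differed between the cell types was tested directly, as the change in stem cells minus the change in differentiated cells. At 15 min 0 of the 10 genes were called by limma, beside 1.43% of 28098 probes (0.587% higher, 0.847% lower), with 3 at an unadjusted p under 0.05, Bmp4, Lefty1 and Fgfr2, and 1 by the methods' test before adjustment, Lefty1, beside 17.9% and 11.6% of all probes. At 4 h 0 of 10 were called by limma, beside 0.909% of 28375 probes (0.173% higher, 0.737% lower), with 1 at an unadjusted p under 0.05 and by the methods' test before adjustment, Tdgf1, beside 14.4% and 9.53% of all probes. The difference for Lefty1 at 15 min was -1.12 ± 0.41 (SE, adjusted p 0.173) and for Tdgf1 at 4 h -1.35 ± 0.54 (adjusted p 0.276).

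The differences at 15 min of Nodal, Fgf4, Fgf5 and Lefty1 rest on EDRE arrays where these are not well above background, and those of Bmp4 and Fgfr2 on the 1 EDRE array without an outlier mark. Without EDRE replicate 1, which leaves the dim arrays alone, 4 genes were called: Nodal (-2.04), Fgf4 (-2.60), Fgf5 (-2.41) and Lefty1 (-1.48). Without EDRE replicates 2 and 3 the differences were 0.49 for Nodal, 0.64 for Fgf4, 0.99 for Fgf5 and -0.41 for Lefty1, and the first 3 had the opposite sign. Leaving out ED replicate 1, the array on which Lefty2 was detected, gave a call for Lefty2 (-2.03). A level below detection cannot show a response, so for Nodal, Fgf4, Fgf5, Lefty1 and Lefty2 no difference between the cell types could be measured at 15 min or at 4 h.

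The genes most like a member over the arrays were looked up by Pearson correlation, as a description only, since the values fall into separate clusters by cell type. Nodal and Fgf5 were not well above background on any array of differentiated cells, so their correlations rest partly on background values. Nearest to Nodal, among 14240 genes, were Syce2, a meiotic chromosome protein (0.9988 over 18 arrays), the stem cell gene Dppa4 (0.9987 over 17) and Gtsf1l (0.9986 over 16). Nearest to Fgf5 were Mep1b, a metalloprotease (0.9991 over 18), Lypd6 (0.9987 over 18) and Mov10l1, a germline RNA helicase (0.9984 over 15). Bmp4, with a pattern that does not split by cell type, had weaker matches, with Rab3ip at 0.9169 over 15 arrays, Eif2b3 at 0.9129 and Barhl2 at 0.9118, both over 16. Fgf4 had too few usable arrays (14) for this.

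The rest of the Nodal and activin pathway was split in ED against ES, with 3 genes called higher and 7 lower of 15 tested and a median log2 change of -1.48, beside -0.19 for all probes. Here and below, counts are of genes and medians are over the probes tested, so a gene with several probes weighs more in a median. The counts are to be read beside the shares of all probes called, given above. Fst and Inhba, which encode the activin inhibitor follistatin and an activin subunit, were 63.4-fold and 22.9-fold higher. Cfc1, the other co-receptor of the Tdgf1 family, was at least 38.2-fold lower. The counts were 3 and 7 of 15 in EDRE against ESRE (median -1.18) and 4 and 7 of 16 in EDRL against ESRL (median -0.65). They lean on the scaling: with arrays scaled to the median they were 4 and 6, 7 and 6, and 7 and 7.

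The BMP pathway around Bmp4 was split as well, with 7 genes called higher and 6 lower of 19 in ED (median 0.86), and 7 and 7 of 18 in both irradiated comparisons (medians 0.82 and 0.83). The BMP antagonist Grem1 was 300.3-fold higher and the ligand Bmp2 rose by 3.42 on the log2 scale. The ligand Bmp7 was at least 137-fold lower and the antagonist Nog at least 42.7-fold lower. Median scaling gave 11 higher and 6 lower in each comparison.

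Other FGF ligands were mostly lower in ED, with 5 higher and 10 lower of 16 (median -1.98), and in EDRE, with 2 and 9 of 13 (median -1.97). In EDRL 4 were higher and 7 lower of 14 (median -0.50, but 0.90 with the authors' values). Of all probes 15.0% were called higher and 26.4% lower in ED, 18.7% and 27.4% in EDRE, and 23.8% and 24.8% in EDRL. Fgf15 was 52.2-fold and Fgf13 26.9-fold lower in ED. Among those higher were ligands that mesenchymal cells secrete toward epithelia. Fgf10 was at least 24.8-fold higher, and Fgf7 at least 206-fold, on ED replicate 3 alone, without which it has no value.

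FGF receptors and adaptors other than Fgfr1 and Fgfr2 were called higher for 1 gene and lower for 5 of 9 in ED (median -0.73), 0 and 6 of 11 in EDRE (median -1.05) and 1 and 7 of 11 in EDRL (median -1.54). Gab1, a docking protein between receptor and kinase cascade, was 21.1-fold lower, and Klb, a co-receptor for endocrine FGFs, 10.8-fold lower. The RAS activator Sos1 was 3.30-fold higher (log2 change 1.72), a call lost with scan time as a random block, though the change was 1.78. Median scaling gave 3 higher in both of the first 2 comparisons, with 4 and 5 lower.

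Feedback genes of FGF and ERK signaling, which ERK activity itself induces, were called at shares near those of all probes in ED (15.0% higher, 26.4% lower), where 2 were higher and 3 lower of 11 (median 0.22). The counts were 2 and 6 of 10 in EDRE (median -1.44) and 4 and 3 of 12 in EDRL (median 0.22). The ERK inhibitors Spry4 and Dusp4 were 7.62-fold and 3.31-fold lower in ED, the transcription factor Etv1 was at least 9.38-fold higher, and Spred1 was 2.10-fold higher, a call that is lost without ED replicate 1 (log2 change 0.87) and with scan time as a random block (0.97). Median scaling turned the counts to 3 and 2 in both ED and EDRE.

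**Figure D4:**
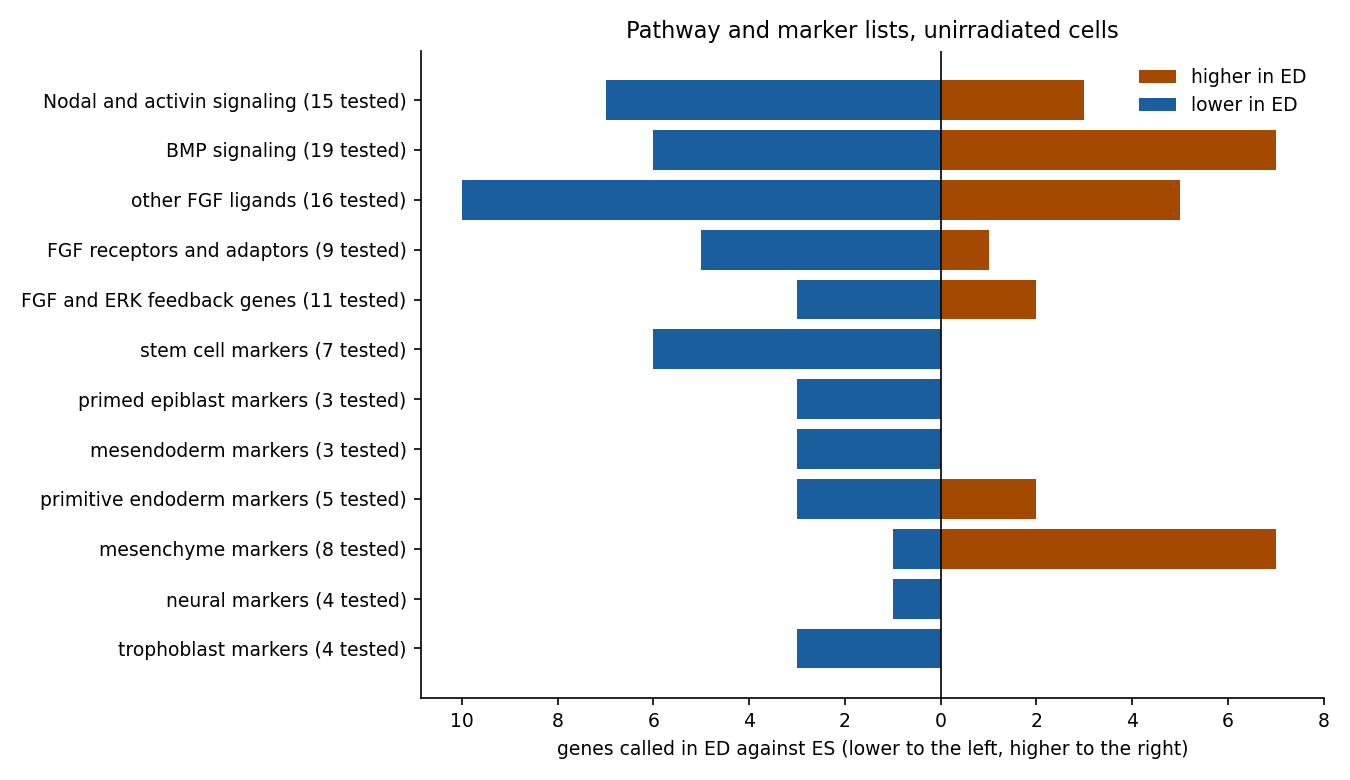
Number of genes called higher and lower in ED against ES, from 0, for the 5 pathway lists and 7 lists of cell type markers, with the genes tested. Mesenchyme markers are called higher for 7 of 8, and stem cell, primed epiblast, mesendoderm and trophoblast markers are called in the lower direction only. Among neural markers 1 of 4 is called lower, beside 26.4% of all probes.

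Marker lists place these changes beside those of cell identity, and the part of cell composition in the results of the 10 genes was not tested. The plot of list counts shows the contrast: 0 stem cell markers were higher and 6 of 7 lower in ED (median -7.55), and 7 mesenchyme markers were higher and 1 lower of 8 (median 5.69). Dppa5a, a stem cell marker, was 9051-fold lower. The mesenchyme markers S100a4 and Prrx1 were 1175-fold and 296-fold higher, and Thy1 was at least 400-fold lower. Primed epiblast markers, the stage that Fgf5 marks, were lower for 3 of 3 (median -5.94), with Otx2 at least 866-fold and Dnmt3b 67.5-fold lower. Mesendoderm markers, which Nodal is known to induce, were lower for 3 of 3 (median -4.01), among them Mixl1, at least 3.93-fold and not called with normexp (-1.16), and T, at least 40.7-fold, which lost its call with scan time as a random block (-6.60 in place of -6.48). Of the 4 mesendoderm markers on the array 0 were well above background on all 3 ED arrays, so their median reaches into the background.

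Markers of the remaining lineages were mixed. Of 5 primitive endoderm markers 2 were higher, Pdgfra 15.6-fold and Dab2 4.47-fold, and 3 lower, with Sox17 16.0-fold and Sox7 at least 36.8-fold (median 2.08, over probes of which Dab2 has 4 and Pdgfra 2). Of 4 trophoblast markers 0 were higher and 3 lower (median -2.82), with Krt7 104-fold and Cdx2 at least 11.6-fold lower. Among 4 neural markers 0 were higher and 1 lower, Pax6, by 2.66-fold, a call lost with scan time as a random block (-1.35 in place of -1.41) and with normexp (-0.77; median of the list 0.09). Median scaling gave counts of 2 and 2 for primitive endoderm, 1 and 3 for trophoblast and 2 and 0 for neural markers. After irradiation the counts, higher and lower, in EDRE and then EDRL were 0 and 6 of 7 both times for stem cell markers (medians -8.94 and -7.77), 0 and 3 of 3 both times for primed epiblast (-6.13 and -6.39), 0 and 4 of 4, then 0 and 3 of 3, for mesendoderm (-3.30 and -5.08), and 6 and 1 of 7, then 7 and 1 of 8, for mesenchyme (5.93 and 6.36). Primitive endoderm had 2 and 2 of 6 both times (3.06 and 2.63, over probes), trophoblast 1 and 3 of 4 both times (-3.41 and -4.62), and neural markers 1 and 0, then 0 and 1, of 4 (-0.28, which was 0.52 under median scaling, and 0.17).

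The genes of these lists called after irradiation are to be read beside the shares of all probes called, 0.341% and 6.52% in stem cells at 15 min and 4 h and 3.38% and 1.43% in differentiated cells. Over the 4 comparisons with unirradiated cells the medians of the 5 pathway lists lay between -0.42 and 0.14, beside -0.16 to 0.03 for all probes, and those of the marker lists between -1.02 and 0.74. In stem cells at 15 min only Sos1 was called, 2.85-fold higher (log2 change 1.51), and leaving out any ES or ESRE array lost the call (1.30 to 1.66). At 4 h Sos1 was 2.66-fold higher, and the FGF antagonist Il17rd (at least 2.19-fold) and Pdgfra (2.64-fold) were lower, each also with any single array left out. With normexp background correction none of these 4 h calls and none of those in the next sentence was made (Il17rd -0.49 in place of -2.29). Called lower too were the activin receptor Acvr1b (at least 4.06-fold), not without ES replicate 1 (-2.06) or 2 (-1.92), Sox17 (2.27-fold), not without any ES array (-1.24 to -1.14) or ESRL replicate 1 (adjusted p 0.0748) or 3 (-1.14), and Prrx1 (at least 1.72-fold), not without ESRL replicate 1 (-0.91).

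In differentiated cells at 15 min Egr1, an immediate early target of ERK, was 3.21-fold higher and Pou5f1 at least 2.64-fold lower. Without EDRE replicates 2 and 3 the change of Egr1 was 1.12 in place of 1.68, and that of Pou5f1 -0.93 in place of -1.68, and neither was called. With normexp that of Pou5f1 was -0.02. The ERK phosphatase Dusp6 was 2.10-fold lower on 1 usable EDRE array, a call lost without any ED array (-1.14 to -0.998). Sox17 was at least 1.73-fold lower, a call lost without any ED array (-1.52 to -1.39) or EDRE replicate 3 (-1.10), and it was at 0.48 with normexp. Fgf7 was called lower on 1 usable array in each group, with the spread taken from other groups alone, and not with outlier spots kept (-2.19). At 4 h Fgf18 was 5.56-fold higher, and not called with quantile normalization (2.52) or normexp (1.79). With scan time as a random block none of these calls of irradiated against unirradiated cells was made, though most changes kept their size: Sos1 was at 1.45 and 1.35, Acvr1b at -2.02, Il17rd at -2.36, Pdgfra at -1.46, Egr1 at 1.6 and Fgf7 at -7.29, while Fgf18 was at 1.20 in place of 2.48.

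Later against earlier, Il17rd was at least 2.79-fold lower in ESRL, and not called with normexp (-0.70). In EDRL, Dusp6 (2.41-fold, 1 usable EDRE array), Fgf18 (at least 3.41-fold) and Pou5f1 (at least 2.47-fold) were higher than in EDRE. Without EDRE replicates 2 and 3 the values of Fgf18 and Pou5f1 were 1.17 and 0.83 in place of 2.31 and 1.58, and with normexp 0.23 and 0.02, and neither was called. Called there as well were Inhba (log2 change 1.28), Fst (-1.26), Smad9 (-1.08), Fgf17 (-1.64), Fgf8 (-1.29), Egr1 (-1.19), Dab2 (-1.27) and Pax6 (-1.39), each of which lost its call without EDRE replicate 2 or without EDRE replicate 3. Without both of those arrays these values were 1.28, -0.28, -0.86, -1.56, -0.31, -0.63, -0.32 and -0.24, and none was called. Inhba, with 1 usable EDRE array, was at -0.29 with outlier spots kept. With scan time as a random block the calls of Il17rd, Dusp6, Inhba and Fgf17 stayed.

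The difference between the responses of the cell types was called at 15 min for Bmp7 (-2.44), Fgf7 (7.86), Sos1 (1.77), Dusp6 (1.32), Esrrb (1.46) and Pou5f1 (2.30). The first 5 lost the call without ESRE replicate 1 (-2.52, 7.77, 1.70, 1.26 and 1.47) and Pou5f1 without ESRE replicate 3 (2.17). Bmp7 was well above background on 0 ED arrays and 1 EDRE array, so its value is no measure of a response. Pou5f1 was well above background on 1 of the 3 EDRE arrays, so its value reaches into the background too. As given above, its change in EDRE was smaller without EDRE replicates 2 and 3. The value of Fgf7 rests on 1 usable array in each differentiated group, and it was 2.69 (adjusted p 0.413) with outlier spots kept and 2.43 with the authors' values. At 4 h it was called for Sos1 (1.89), and not without any EDRL array (1.86 to 1.94). None of these was called with normexp, nor with scan time as a random block, where the values were -1.97 for Bmp7, 8.27 for Fgf7, 1.65 for Sos1, 1.36 for Dusp6, 1.26 for Esrrb, 1.96 for Pou5f1 and, at 4 h, 2.23 for Sos1.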

How the data were processed

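The series holds 18 arrays of Agilent make, 1 per sample and 3 per group, for the groups ES, ESRE, ESRL, ED, EDRE and EDRL. The intensity values of the spots, per the file headers, come from Agilent Feature Extraction 10.7.3.1 (version 9.1 in the processing notes), as spot signals less the background, without normalization between arrays. The authors also deposited a table of log2 values for 30133 probes, which follow, as tested on the files, the log2 signal (at least 5) minus a constant for each array, to within 0.15. The marks for outlier spots and signals well above background are other values that the scanner software set, as deposited.

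Of 39448 spots per array, 1417 control spots and 200 unmarked negative controls were left out. The 37831 kept spots represent 37246 probes, of which 22216 were named through RefSeq accessions. From the log2 of each signal the array's 75th percentile was subtracted, taken over all kept spots, outlier spots included, since on EDRE replicates 2 and 3 the outlier marks fall mostly on bright spots. Outlier spots were then left out, so that a group can hold fewer than 3 usable arrays. A probe counted as well above background where at least 50% of its spots were, and was tested where it was so on all 3 arrays of at least 1 group compared.

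All probes were fitted in 1 model of 6 group means with limma 3.58.1 in R 4.3.3, two-sided, with Benjamini-Hochberg adjustment over all probes tested. Calls needed a log2 change of more than 1 either way and an adjusted p below 0.05. The fit was tested on simulated data. The number of arrays limits the precision. All groups share 1 fit, and comparisons with a group in common share its arrays.

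The 10 genes and the lists were chosen with earlier results of these data known. The lists are Nodal and activin signaling, BMP signaling, other FGF ligands, FGF receptors and adaptors, FGF and ERK feedback genes, and markers of stem cells, primed epiblast, mesendoderm, primitive endoderm, mesenchyme, neural cells and trophoblast. They are described by counts and medians, with no test of a list. Named genes are the 10 members, of each list the 2 called genes with the largest rise and the 2 with the largest fall in ED against ES, in the comparisons within a cell type and the interactions up to 3 called genes, the 3 genes most alike to Nodal, Fgf5 and Bmp4 over at least 15 arrays, and 4 markers for the labels. Not every gene that meets this rule is named.

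Alternatives were normexp background correction (on the spots' median signal), median and quantile scaling, outlier spots kept, no detection filter, a filter on all groups compared, the replicate number as a block, scan time as a random block, only the groups compared, the test of the study's methods with and without adjustment, no fold limit, the authors' log2 table, probes averaged per gene, EDRE replicates 2 and 3 left out, and each array left out in turn. Fits on the 9 arrays of 1 cell type were added after seeing the data.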

Additional observations from a re-analysis of the deposited data

How the results depend on the processing

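The 6 genes called in each cell type comparison were called under every alternative but those named here. A filter for signals well above background in all groups compared left 0 called in ED against ES, 0 in EDRE against ESRE and 1 in EDRL against ESRL (Tdgf1), since it leaves out probes not well above background in the differentiated cells. Leaving out 1 array in turn gave 5 to 6 in ED against ES (5 without ES replicate 3, the only ES array with a usable Tdgf1 spot), 6 in EDRE against ESRE, and 5 to 6 in EDRL against ESRL (5 without ESRL replicate 1, the only ESRL array with a usable Fgf4 spot). Median scaling, quantile normalization, no fold limit and the authors' values added 1 or 2 of Fgf2, Fgfr1, Fgfr2 and Bmp4 in some of these comparisons.

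Of the comparisons with 0 genes called by limma, ESRL against ES had 1 under median scaling (Lefty1), 1 with outlier spots kept (Tdgf1) and 2 with the authors' values (both). EDRE against ED had 1 without the detection filter (Lefty1, not well above background in either group) and 1 with the authors' values (Bmp4). EDRL against EDRE had 1 each under quantile normalization (Tdgf1), with outlier spots kept (Bmp4), without the detection filter (Lefty1) and with the authors' values (Bmp4). The difference between the responses had 1 by the unadjusted test of the methods at 15 min (Lefty1) and 1 at 4 h (Tdgf1). With arrays left out in turn the counts were 0 to 1 in ESRL against ESRE (1 without ESRL replicate 2, Tdgf1) and 0 to 4 for the difference at 15 min (4 without EDRE replicate 1, namely Nodal, Lefty1, Fgf4 and Fgf5, and 1 without ED replicate 1, Lefty2). Where the text gives no reason, the cause was not tested.

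With the replicate number as a block the counts were 6, 6 and 6 in the cell type comparisons and 0 in the others, so the block changed no call of the 10 genes. The numbers do not show pairing: of 45 pairs of arrays with the same number, 9 had deviations correlated over 0.1 (median -0.02), and 5 of 18 arrays were on average most alike to their own number.

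Of all probes in ED against ES, 7631 were called higher and 5269 lower under median scaling, in place of 4307 and 7568. Over all alternatives, 4561 changes of the 13 probes kept their status (called or not) and 36 became called, not counting those that an alternative left untested. Signal over background is a limit, since the differentiated cells give a bound and no level for Nodal, Lefty1 and Fgf5 on all 9 arrays, for Fgf4 on 7, Lefty2 on 6 and Tdgf1 on 3.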
